A study of Mus musculus with 8 samples.

Results

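Small RNAs of mouse testis annotated with names of murine leukemia virus-like elements, or with other names that share a prefix with them, were examined. Members were all distinct sequences whose annotation name started with MuLV, MuRRS or RLTR4. They numbered 69383 of 6246223 distinct sequences (1.11%) under 21 names, and 59869 of them were 24 to 33 nt long, the size of Piwi-interacting RNAs (piRNAs). The study sequenced 19 to 33 nt RNA of testes labelled as heterozygous or homozygous tdrd6-KO at 18 days, 25 days and 6 weeks of age, and as heterozygous or homozygous tdrd1-KO at 18.5 days after conception. Each of these 8 groups had 1 library, every group carried at least 1 mutant allele of its gene, and the labels used here gave neither the strain nor the number of animals. The deposited table pooled the libraries. Each line held a sequence, how many genomic positions it mapped to and a name, with no read number, strand, coordinate or library. Genotypes and ages could therefore not be compared, and the testis label could not be checked against marker genes. All values below are numbers or shares of distinct sequences and take no account of how many reads each had. The depth was unknown, and the 95% intervals are exact (Clopper-Pearson) and cover counting error only. No difference between names or lists was tested, because overlapping sequences of the same element are not independent.

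Murine leukemia viruses are gammaretroviruses, and the mouse genome carries many endogenous copies of them with gag, pol and env genes flanked by long terminal repeats (LTRs). MuRRS (murine retrovirus-related sequences) are relatives of these copies. In male germ cells, Piwi proteins bound to piRNAs silence such elements before and around birth. Piwi proteins prefer piRNAs that start with U, written T here. When a Piwi protein cuts a target RNA, the new 5' end lies opposite position 10 of the guiding piRNA, so that piRNAs made by reciprocal (ping-pong) cleavage overlap by 10 nt at their 5' ends and often carry A at position 10. Tdrd1 and Tdrd6 encode Tudor-domain proteins that bind Piwi proteins.

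The rule took in names of different standing. The names MuLV-int, MuRRS-int, MuRRS4-int and RLTR4_MM-int stand for internal parts of the MuLV and MuRRS elements. RLTR4_Mm stands for the LTR of the MuLV elements. Together they are called the 5 MuLV-like names here and held 33220 of the 59869 sequences (55.5%). The other 16 names, RLTR40 to RLTR47, were members because their names also start with RLTR4, and held 26649 (44.5%). Of the 18-nt words in MuLV-int sequences, 14.2% also occurred in RLTR4_MM-int on either strand, and 10.3% of those of RLTR4_MM-int occurred in MuLV-int. MuRRS-int shared 3.60% of its words with MuRRS4-int. No RLTR40 to RLTR47 name shared more than 0.262% of its words with any of the 5 MuLV-like names. Sharing was also low between MuLV-int and MuRRS-int (0.229%), so this measure does not decide which names belong to the same family. The LTR names RLTR44A to RLTR44E shared from 3.90% to 17.3% with one another. The table gave no element class, and the 16 names are described apart.

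Pairs of small RNAs with the 10-nt overlap could be placed on the genome where both mapped to 1 position and matched an annotated transcript. Of 9 such pairs, 4 lay in MuRRS4-int sequence of Gm46224, a long noncoding RNA gene on chromosome 10 (GENCODE M21 on GRCm38, chr10:51526340-51531161, plus strand). They are shown because they are the only ones of these 9 pairs under a MuLV-like name. Numbers of pairs at other overlaps are not given for these sequences, so the 9 pairs do not measure an excess at 10 nt. Capitals mark the 10 bases that pair, and each sequence is written 5' to 3'.
Plus strand, chr10:51530467-51530492: TAGAGAGTCCgtctacattagatgct
Minus strand, chr10:51530451-51530476: GGACTCTCTAacttgggagagatgtg
Plus strand, chr10:51530487-51530516: GATGCTACCAcgtagaaaaccttgagactt
Minus strand, chr10:51530469-51530496: TGGTAGCATCtaatgtagacggactctc
Plus strand, chr10:51530638-51530663: TATTAGAGCAagatttagtacagtgc
Minus strand, chr10:51530619-51530647: TGCTCTAATAaaggcgactagcctattta
Plus strand, chr10:51530699-51530725: TTCATCAGACagcaggtcagcactgta
Minus strand, chr10:51530680-51530708: GTCTGATGAAaagccatcctttagggtgt
All 8 lay in exons of a transcript with no coding sequence. At least 1 sequence of each of the 4 pairs started with T, and in 1 pair both did. Where a sequence starts with T, its partner has A at position 10 by base pairing.

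Small RNAs of a MuRRS copy that mapped to 1 position are represented by sequences from D10Wsu102e. They are shown because their 5' ends were each found with 5 different lengths, the highest number among MuRRS-int sequences at 1 position on a transcript. Another such 5' end, whose longest form has 32 nt, is not printed. Capitals mark T at position 1 and, where present, A at position 10. Both lie on the plus strand of chromosome 10 in the 3' UTR of that gene's annotated transcript.
D10Wsu102e, chr10:83390505-83390533: TaattgtacAgatcagctgatgaaaaagg
D10Wsu102e, chr10:83390538-83390566: Tattagagggtctgcagagactgcctgtc
For the LTR RLTR4_Mm, sequences at 1 position were rare. The one shown came from the 3' UTR of Cep85, which encodes a centrosomal protein.
Cep85, minus strand, chr4:134164686-134164712: Taagtctgtttgaaagacccccgaggt

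The internal regions held most sequences of the 5 MuLV-like names. RLTR4_MM-int had 10023 sequences of 24 to 33 nt, MuRRS-int 9583, MuRRS4-int 8706, MuLV-int 3276 and the LTR RLTR4_Mm 1632. How far these could be placed differed widely. RLTR4_MM-int sequences mapped to a median of 33 positions (quartiles 18 and 47), and 8.58% (8.04 to 9.15) mapped to 1 position. RLTR4_Mm had a median of 44 positions, with 5.70% (4.62 to 6.94) at 1 position. MuRRS-int had a median of 6 positions and 28.8% at 1 position. In MuLV-int and MuRRS4-int the median was 2, and 47.6% (45.9 to 49.3) and 47.9% (46.9 to 49.0) mapped to 1 position.

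**Figure D1:**
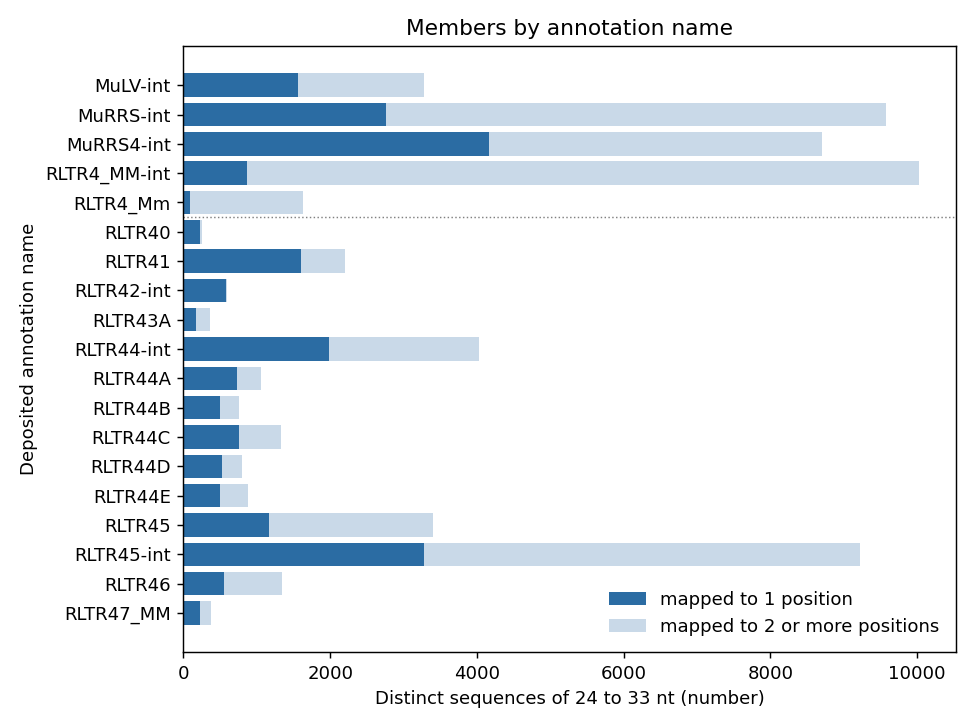
Number of distinct sequences of 24 to 33 nt (x axis) for each annotation name with at least 100 (y axis), split into those that mapped to 1 position (dark) and to more (light). The dotted line separates the 5 MuLV-like names from RLTR40 to RLTR47. RLTR4_MM-int has the longest bar, with 10023 sequences, and 8.58% of it is dark.

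T at position 1 was frequent under every name and least frequent in the RLTR4 elements proper. RLTR4_Mm had it in 58.5% (56.0 to 60.9) of sequences and RLTR4_MM-int in 62.9% (61.9 to 63.8). MuRRS-int had 69.9% (69.0 to 70.8), MuLV-int 72.6% (71.1 to 74.1) and MuRRS4-int 74.8% (73.8 to 75.7). The intervals of RLTR4_Mm and RLTR4_MM-int did not overlap those of the other 3. Over all members the share was 70.3% (70.0 to 70.7). In sequences annotated to RefSeq mRNAs of the same length it was 78.4%, and in the internal region of IAPEz, another endogenous retrovirus, 61.2%. Among RLTR4_Mm sequences that did not start with T, A was the most frequent first base, with 19.2% of all sequences against 12.4% for G and 9.87% for C.

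A at position 10 gave the opposite order of the 5 names, although the intervals of RLTR4_MM-int and MuRRS-int overlapped, as did those of MuLV-int and MuRRS4-int. It was found in 47.0% (44.6 to 49.5) of RLTR4_Mm, 43.1% (42.1 to 44.1) of RLTR4_MM-int, 42.1% (41.1 to 43.1) of MuRRS-int, 36.8% (35.2 to 38.5) of MuLV-int and 34.8% (33.8 to 35.8) of MuRRS4-int sequences. In RLTR4_MM-int the neighbouring positions 9 and 11 had A in 22.7% and 25.9%. The share was 39.2% (38.8 to 39.6) over all members, 40.5% in the RLTR6 list, another group of mouse endogenous gammaretroviruses, 45.7% in IAPEz-int, 28.7% in the MurERV4 list and 25.8% in mRNA sequences.

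Sequences with another first base than T carried A at position 10 more often. In RLTR4_MM-int the share was 61.6% (60.1 to 63.2) without T first and 32.1% (31.0 to 33.3) with it. It was 60.8% and 34.03% in MuRRS-int, 54.8% and 28.1% in MuRRS4-int, 53.5% and 30.5% in MuLV-int, and 58.4% and 38.9% in RLTR4_Mm. The share without T first was higher under all 19 names with at least 100 sequences, and the intervals were apart in 14 of them. Sequences of different length that start at the same 5' end count separately in these intervals, so this count of names is not a test. The RLTR6 list had 58.4% and 32.2%, and IAPEz-int 56.8% and 38.6%, so the split was not particular to these names. The MurERV4 list had 32.04% and 26.96%, and mRNA sequences 28.0% and 25.2%.

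**Figure D2:**
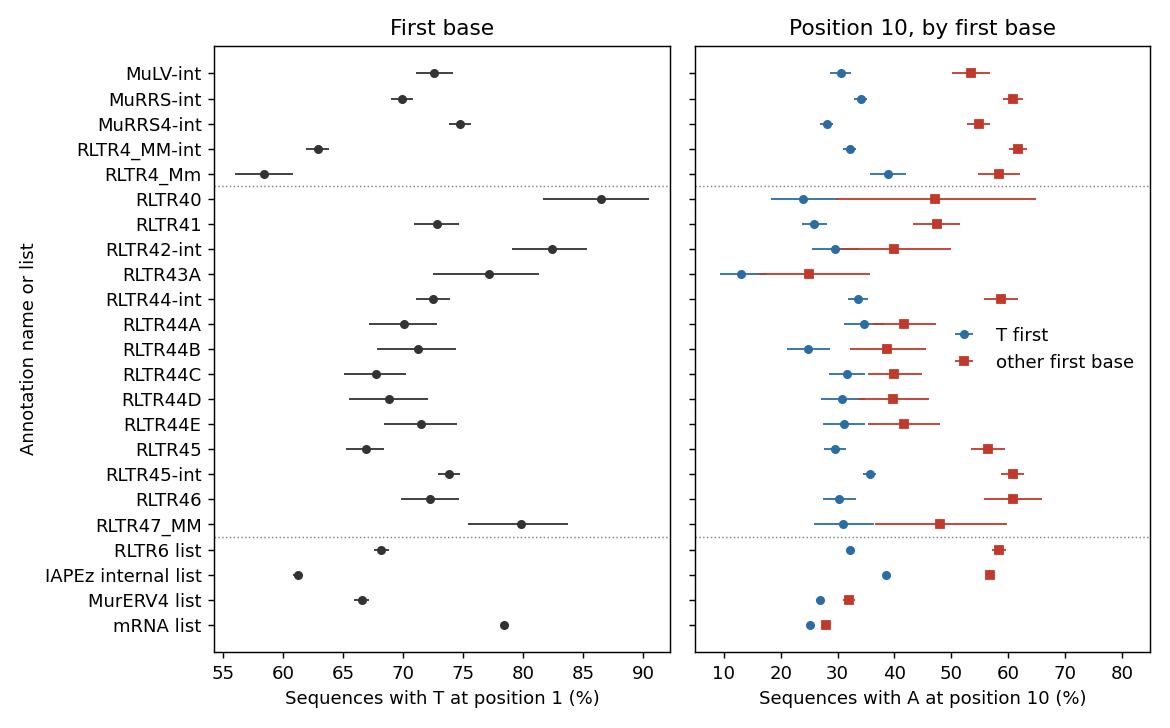
Share of sequences of 24 to 33 nt with T at position 1 (left, x axis in percent) and with A at position 10 (right, x axis in percent), the latter for sequences with T first (blue circles) and with another first base (red squares), by name or list (y axis). Bars are exact 95% intervals. Under each of the 5 names above the first dotted line the red squares lie at 53.5% or higher and the blue circles at 38.9% or lower.

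Sequences with A at position 10 and no T first were slightly longer. Their mean length in MuRRS4-int was 28.0 nt (SD 1.78), against 27.3 nt (SD 1.79) for those that started with T and lacked A at position 10, a difference of 0.661 nt. The difference was 0.407 nt in MuRRS-int, 0.33 nt in RLTR4_MM-int, 0.337 nt in MuLV-int and 0.427 nt in RLTR4_Mm, each well below the SD of the lengths. It was above 0 under 18 of the 19 names, with RLTR40 the exception at -0.078 nt. The difference was also above 0 in the RLTR6 list (0.47 nt), IAPEz-int (0.212 nt) and mRNA sequences (0.186 nt), and was -0.13 nt in the MurERV4 list. A value above 0 was thus not particular to these names. The most frequent length was 28 nt in MuRRS-int, RLTR4_MM-int and RLTR4_Mm and 27 nt in MuLV-int and MuRRS4-int. The list of mRNA sequences had 26 nt.

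The first base and position 10 varied with the number of positions to which a sequence mapped. Of RLTR4_MM-int sequences at 1 position, 73.6% (70.5 to 76.5) started with T and 38.1% (34.9 to 41.5) had A at position 10. At 10 or more positions the shares were 61.0% (59.9 to 62.1) and 43.5% (42.5 to 44.6). MuRRS-int went from 76.3% to 64.7% for T first and from 38.2% to 45.6% for A at position 10. MuRRS4-int went from 78.2% to 69.7% and from 31.8% to 39.3%. RLTR4_Mm, with 93 sequences at 1 position, went from 74.2% to 55.7% and from 32.3% to 48.7%. MuLV-int also lost T, from 77.9% to 66.7%, but its share of A at position 10 was highest, 40.0%, at 2 to 9 positions and 37.2% at 10 or more. Under all 5 names, T first was thus rarer at 10 or more positions than at 1, and A at position 10 was commoner. In MuLV-int the intervals of the latter shares overlapped.

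Opposite-strand partners at an overlap of 10 nt were found within every MuLV-like name. A 5' end was the first 20 nt of a sequence, and a partner was an opposite 5' end of the same name whose first 10 bases paired with the 10 bases that close the overlap. The stretch compared had 10 bases at each overlap. Only at 10 nt did it set position 1 of each 5' end against position 10 of the other. The part of T first and A at position 10 in the matches was not tested. Of 5760 RLTR4_MM-int 5' ends, 44.01% (42.7 to 45.3) had a partner at 10 nt, against a mean of 23.03% and a highest value of 24.97% at overlaps of 11 to 20 nt. RLTR4_Mm had 44.1% (40.9 to 47.3) against a mean of 27.4%. MuRRS-int had 32.9% (31.8 to 34.1) against 17.02%, MuRRS4-int 15.1% (14.3 to 16.0) against 7.33%, and MuLV-int 14.1% (12.7 to 15.5) against 5.55%. Relative to the longer overlaps, the 10-nt value was thus 2.53 times as high in MuLV-int, which had the lowest share of partners of the 5 names, and 1.61 times in RLTR4_Mm. This ratio was 1.88 in the RLTR6 list (35.3% against 18.7%), 1.27 in IAPEz-int (61.7% against 48.4%) and 1.34 in the MurERV4 list (11.1% against 8.26%). The highest ratio possible falls as the mean at the longer overlaps rises. The ratios therefore do not rank the names and lists by their excess at 10 nt. The number of 5' ends differed between the names, from 960 in RLTR4_Mm to 7032 in MuRRS4-int, as did the number of mapped positions, and the part of either in these shares was not tested.

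**Figure D3:**
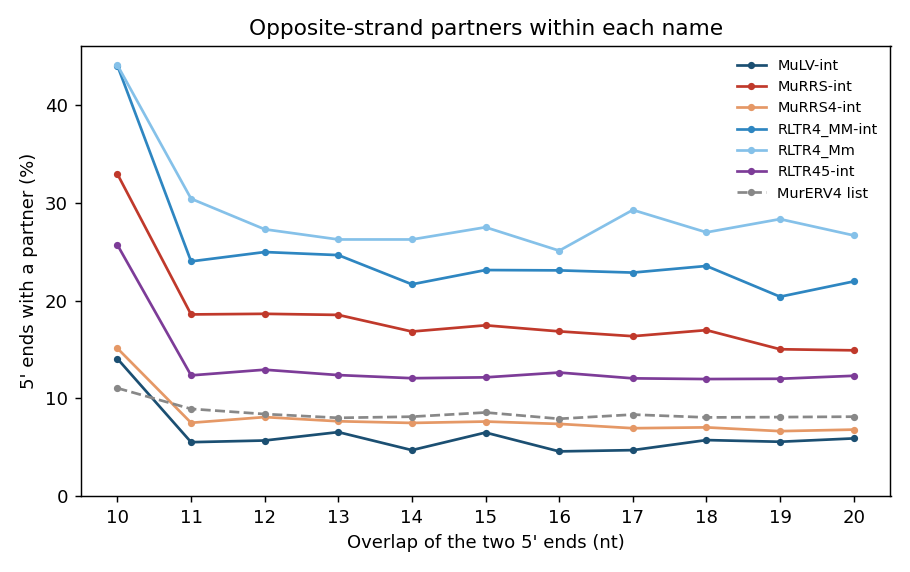
Share of 5' ends with an opposite-strand partner of the same name (y axis, percent) at overlaps from 10 to 20 nt (x axis), for the 5 MuLV-like names, RLTR45-int and the MurERV4 list. Each line is highest at 10 nt, where RLTR4_MM-int reaches 44.01% and MuLV-int 14.1%.

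Partners were also found between names that share sequence. Of MuLV-int 5' ends, 17.1% had a partner at 10 nt among RLTR4_MM-int 5' ends, beside 14.1% within MuLV-int. The mean at the longer overlaps was 7.34%. Of RLTR4_MM-int 5' ends, 7.67% had one among MuLV-int. Between MuRRS-int and MuRRS4-int the share was 5.51%. Names that share few words gave low values at every overlap, such as 2.49% for MuLV-int 5' ends with MuRRS-int partners and 1.48% for RLTR4_MM-int with RLTR45-int. The ratio of 10 nt to the other overlaps was 2.27 and 1.88 in these 2 comparisons. RLTR4_MM-int and RLTR45-int shared no 18-nt word, while the ratio within RLTR4_MM-int was 1.91. The ratio alone therefore does not tell partners on the same element from matches of 10 bases between names that share no word. Over all pairs of different names among the 5 and RLTR45-int it ranged from 0.714, for RLTR45-int 5' ends with RLTR4_Mm partners, to 2.80, for MuRRS-int with RLTR4_Mm partners. The shares at 10 nt behind these values were 0.029% and 0.222%.

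The strand and position of sequences relative to an element were measured on annotated transcripts that contain a copy. Gm42427 (chr5:44137980-44143271, plus strand, 1 exon of 5292 nt, an unclassified gene model) matched 4295 members exactly, of which 3801 were RLTR4_MM-int and 494 RLTR4_Mm. On its plus strand a frame of 921 codons without a stop (positions 1 to 2763) overlapped another of 690 codons (2559 to 4628). They are taken here as the end of pol and as env by their order and overlap, and they set the sense strand. The matched sequences had a median of 45 mapped positions and 1 of them mapped to 1 position, so the copy stands for its family and not for the source of the RNAs.

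Both strands of this MuLV copy were covered from end to end, with more sense than antisense sequences. There were 2496 sense and 1799 antisense sequences, 58.1% (56.6 to 59.6) sense. All 53 intervals of 100 nt held both strands, and sense was higher in 41 of them. The sense share was 58.8% in the pol part, 58.8% in the env frame and 53.0% (48.6 to 57.3) after it, where the LTR lies. The density was 866, 754 and 782 sequences per kb in these 3 parts. Base preferences did not separate the strands. T was first in 60.7% (58.7 to 62.6) of sense and 60.6% (58.3 to 62.9) of antisense sequences, and A was at position 10 in 43.8% (41.8 to 45.7) and 44.4% (42.1 to 46.7). Without T first, A at position 10 reached 60.3% in sense and 63.0% in antisense sequences.

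**Figure D4:**
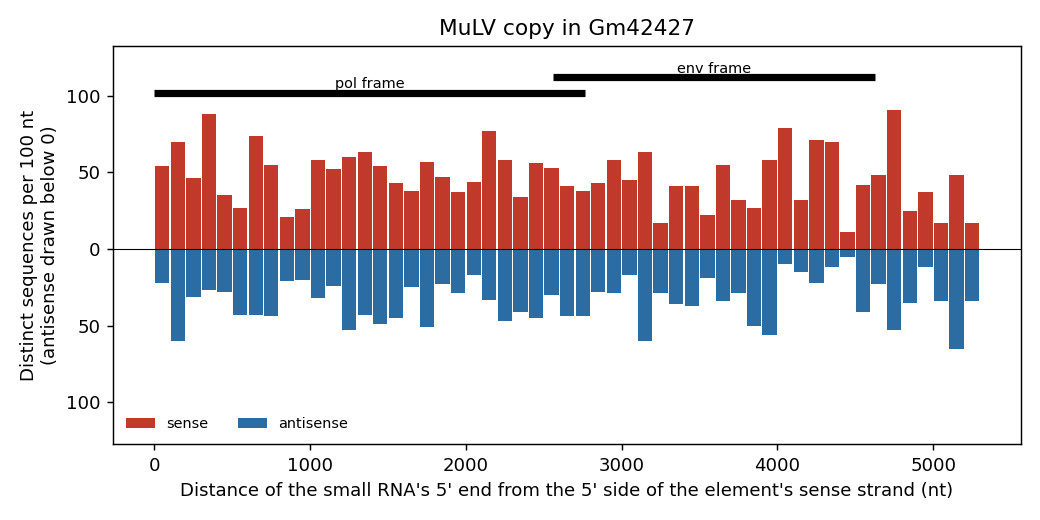
Distinct sequences per 100 nt (y axis, sense above 0 and antisense below) by distance of their 5' end from the start of the MuLV copy in Gm42427 (x axis, nt). Black bars show the 2 open frames. Both strands are present in all 53 intervals, with up to 91 sense and up to 65 antisense sequences in an interval.

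Positions on the copy gave the overlaps directly. Of 1268 sense 5' ends, 515 (40.6%) had an antisense 5' end at an overlap of 10 nt. Over the other overlaps from 1 to 25 nt the number of pairs ranged from 227 to 320, with a mean of 277 (SD 24.4), so that the number at 10 nt was 1.86 times that mean. The base that follows the 3' ends on the element was T in 19.8% (18.0 to 21.8) of sense and 23.96% (21.7 to 26.3) of antisense 3' ends, while T makes up 20.8% and 26.6% of these strands. On the MuRRS copy in D10Wsu102e, described next, it was T in 20.8% (18.2 to 23.5) of sense and 25.3% (22.9 to 27.7) of antisense 3' ends, with 24.9% and 27.04% T in the strands. T followed less often than its share of the strand in all 4 cases, and the interval left out that share in antisense on the MuLV copy and in sense on the MuRRS copy.

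The MuRRS copy in D10Wsu102e lay in antisense orientation to the gene. D10Wsu102e (chr10:83360221-83488505, plus strand) is annotated as protein-coding, and its transcript matched 3302 members, 2920 of them MuRRS-int. These 2920 all lay in 1 stretch of 4716 nt of the 3' UTR (chr10:83387140-83391855). Within it, 6 segments matched the translated pol and env frames of Gm42427 over 603 residues with 52.6% to 74.3% identity, and all 6 were on the minus strand. Sequences from the sense strand of D10Wsu102e are therefore antisense to the MuRRS element. Of 2943 members on this stretch, 1237 were sense to the element (42.0%, 40.2 to 43.8) and 1706 antisense, the reverse of the majority on the MuLV copy. These members had a median of 29 mapped positions (quartiles 14 and 50). Most could thus stem from other copies, and their strand shares do not belong to this copy alone.

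Sequences of the MuRRS copy that mapped to 1 position came from the other strand of the element almost without exception. Of 166, 165 were antisense to the element, that is, sense to D10Wsu102e, and 1 was sense to the element (0.602%, 0.0153 to 3.31). T was first in 71.5% (64.0 to 78.3) of these 165 sequences, against 64.1% (61.8 to 66.4) of all antisense sequences on the copy, and A was at position 10 in 41.8% (34.2 to 49.7). The D10Wsu102e sequences printed above belong to this set. With all 2943 members counted by position on the copy, 344 of 1019 plus-strand 5' ends (33.8%) had a minus-strand 5' end at an overlap of 10 nt. Other overlaps from 1 to 25 nt gave 151 to 212 pairs (mean 185, SD 16.2). Most of these members also mapped elsewhere. Sequences of 24 to 33 nt under names outside the rule also matched this stretch or the 1000 nt on either side of it, most of them named MT2_Mm (715), LTRIS_Mm (466), LTRIS_Mus (384), MT2C_Mm (134) and RLTR13D5 (110).

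**Figure D5:**
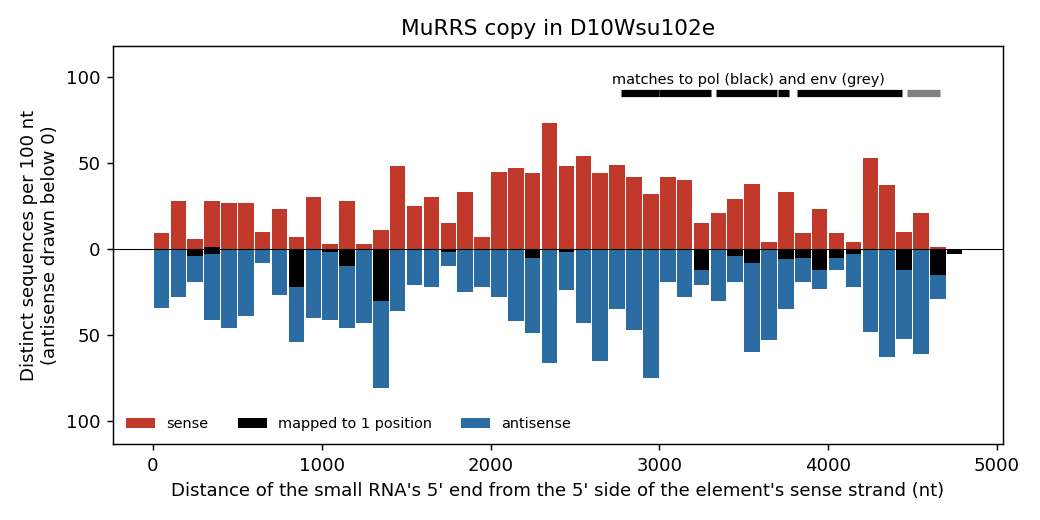
Distinct sequences per 100 nt (y axis, sense to the element above 0 and antisense below) by distance of their 5' end from the 5' side of the element's sense strand (x axis, nt), for the MuRRS copy in D10Wsu102e. Black parts mapped to 1 position, and horizontal bars show matches to pol (black) and env (grey). Of the 166 sequences at 1 position, 165 lie below 0.

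Members that mapped to 1 position matched few annotated transcripts, and mostly on the sense strand. Of 22266, 1154 (5.18%) matched an exon on any chromosome, and 80.8% (78.4 to 83.0) of the 1154 matched the sense strand only. With chromosome 18 left out, 112 genes had such matches. The 5 of these genes with most were D10Wsu102e with 344 (340 sense), AI506816 with 92 (all sense), Slc29a3 with 72 (69 sense), Gm46224 with 68 (13 sense) and Zfp773 with 41 (22 sense). Of the 932 sequences on the sense strand only, 340 were thus from D10Wsu102e. These counts take no account of transcript length. The longest D10Wsu102e transcript extends past position 102816, while that of AI506816 has 2804 nt. In D10Wsu102e, 166 were MuRRS-int, 97 RLTR44-int (96 sense), 72 RLTR44E (70 sense) and 9 RLTR42-int (all sense). Slc29a3 (chr10:60712072-60752794, minus strand), which encodes a nucleoside transporter, held RLTR44-int and RLTR44C sequences.

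AI506816 (chr5:23698296-23712667, minus strand) is a noncoding gene whose longest transcript contains an open frame of 690 codons. This frame matched the env frame of Gm42427 over 694 aligned residues at 91.5% identity, on the same strand. All 92 sequences at 1 position were named MuLV-int and were sense to env, and T was first in 58.7% (47.9 to 68.9) of them. Over all 922 members that matched this gene's longest transcript, 59.7% (56.4 to 62.8) were sense. These 922 had a median of 45 mapped positions, so most could stem from other copies. At 1 position the env copy of AI506816 thus gave sense sequences and the MuRRS copy of D10Wsu102e antisense sequences. In both genes they were sense to the annotated transcript.

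Gm46224, whose pairs open the account, was the exception among these genes. Of its 68 MuRRS4-int sequences at 1 position, 55 were antisense to the gene and 13 sense. A segment of 76 residues on its plus strand matched the env frame at 46.1% identity. Zfp773 (chr7:7127073-7136755, minus strand), which encodes a zinc finger protein, also had both strands, with 22 sense and 19 antisense RLTR45-int sequences. One of the 9 pairs at 1 position lay in its 3' UTR and is shown as the example from the other 16 names. Capitals mark the 10 bases that pair.
Zfp773, minus strand, chr7:7127724-7127751: TGTCTTGTCAtgcatgttgtgtgtatgg
Zfp773, plus strand, chr7:7127742-7127770: TGACAAGACAagggccacagcgagggcac

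RLTR4_Mm copies inside other transcripts were matched mostly by sequences that also mapped elsewhere. Miga1, which encodes a mitochondrial outer membrane protein, matched 623 RLTR4_Mm and RLTR4_MM-int sequences, with 300 sense and 323 antisense to the gene, and 1 of these mapped to 1 position. Cep85 matched 343 members, 9 of them at 1 position and all 9 sense. Both genes were picked after their values were seen. In all, 85.05% of RLTR4_Mm, 54.8% of RLTR4_MM-int, 31.9% of MuRRS-int, 29.1% of MuLV-int and 5.79% of MuRRS4-int sequences matched some annotated transcript.

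The 16 names from RLTR40 to RLTR47 covered a wide range. RLTR45-int was the largest, with 9221 sequences of 24 to 33 nt, followed by RLTR44-int with 4028, the LTR RLTR45 with 3403 and RLTR41 with 2197. RLTR42 had 41 such sequences, and RLTR43B had 2 sequences in all and none in this window. Over the other 14 names, T at position 1 ranged from 66.9% in RLTR45 to 86.5% in RLTR40, and A at position 10 from 15.8% in RLTR43A to 42.2% in RLTR45-int. RLTR45-int and RLTR46 had A at position 10 in 60.7% and 60.9% of sequences without T first, close to MuRRS-int and RLTR4_MM-int. Of RLTR45-int 5' ends, 25.7% had a partner at 10 nt, against a mean of 12.29% at longer ones, and RLTR45 had 41.1% against 21.05%.

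A few of these names stood apart in their values. RLTR40 and RLTR42-int mapped to 1 position in 91.7% and 97.1% of sequences, T was first in 86.5% and 82.4%, and partners at 10 nt were found for 1.69% and 4.17% of 5' ends. RLTR43A had 368 sequences from 141 5' ends, 2.61 per 5' end, while the 5 MuLV-like names together had 1.50. Its share of A at position 10 was 13.0% with T first and 25.0% (16.2 to 35.6) without. The value at 10 nt was above all the other overlaps in 17 of the 19 names with at least 100 sequences, and the lower bound of its interval was so in 16. RLTR40 and RLTR43A were the 2 names where the value at 10 nt was not above the others. In both it equalled the highest other value (1.69% and 7.09%), from only 236 and 141 5' ends.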

How the data were processed

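Per the labels, testis RNA of 19 to 33 nt was ligated to linkers and amplified. The authors deposited 1 table with 3 columns for all 8 libraries. Per the file headers, it holds the sequence, the number of mapped positions (a whole number of another kind than a read count) and the final annotation. The sources used here do not give the aligner, genome build, annotation sources or pooling, and 0 columns belonged to a single library.

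Members were taken by name, with 24 to 33 nt as window. The members and lists were chosen with earlier results of these data known. The comparison lists were names starting with RLTR6 or VL30 (the RLTR6 list), with IAPEz-int, with MurERV4 or RLTR14 (the MurERV4 list), and accessions of RefSeq mRNAs starting with NM. All names with at least 100 sequences were to be named, and the 5 genes with most members at 1 position. The sequences to print were first to be, for each group of names, the 10-nt pair with the most lengths. Such pairs map to many positions and could not be placed, so sequences at 1 position on transcripts outside chromosome 18 are printed instead. This choice was made after the values were seen, and none is shown for MuLV-int or RLTR4_MM-int.

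Members were matched exactly, over their whole length and on both strands, to the transcripts of GENCODE M21 (GRCm38). Map numbers refer to the authors' build, coordinates to GRCm38. Open frames of at least 300 codons were translated with Biopython 1.88 and compared by tblastn 2.17.0. Python 3.11.15, pandas 2.3.3 and SciPy 1.17.1 were used, and functions were checked on simulated sequences. Near-identical copies cannot be told apart, since 1 sequence can stem from any position to which it maps. One result is not reported here.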

Additional observations from a re-analysis of the deposited data

Results flagged for a closer look

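Members outside the window of 24 to 33 nt were not used in the measurements above. There were 6378 members of 19 to 23 nt, of which 51.0% (49.8 to 52.3) started with T, 32.4% had A at position 10 and 23.1% mapped to 1 position. Below the labelled size range, 3056 members were 15 to 18 nt long, and 32.04% (30.4 to 33.7) of them started with T. Above it, 80 members were 34 to 36 nt long, with T first in 67.5% (56.1 to 77.6). Differences between groups and single libraries that stand apart could not be looked for.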

How the results depend on the processing

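T at position 1, 70.3% over all members, was 76.0% at 1 mapped position, 72.6% for MuLV names, 72.2% for MuRRS names, 69.3% for RLTR4 names with RLTR40 to RLTR47 included, 68.8% for the 5 MuLV-like names and 66.6% with 1 sequence for each 5' end. A at position 10, 39.2%, was 39.6% at 25 to 32 nt and, in the same order as before, 34.5%, 36.8%, 38.6%, 39.7%, 40.2% and 37.5%. The share of 5' ends with a partner at 10 nt, 33.0%, was 13.0% at 1 mapped position, where fewer 5' ends were compared, 14.1% for MuLV names, 26.1% for MuRRS names, 33.6% for the 5 MuLV-like names and 34.2% with 5' ends of 24 nt. The ratio to the other overlaps lay between 1.82 and 2.53 in the settings run for partners. The share of members at 1 position, 37.2%, was 34.9% over all lengths. Restricted to sequences at 1 position, the sense share went from 42.0% to 0.602% on the MuRRS copy and from 59.7% to 100% on the env copy of AI506816. The alternatives without RLTR40 to RLTR47 were added once these data were known. Counts by genomic locus were not run, since no genome sequence was used here, and the MuLV copy in Gm42427 had 1 sequence at 1 position, too few for a share. No paired analysis was possible because no column belonged to a library and no test was run.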
